A study of Mus musculus with 5 samples.

Results

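The MHC class I presentation genes were followed in macrophages sorted from mouse aortas. These are 8 of the 55487 genes of the count table, chosen by symbol, and all 8 were found: *B2m*, *H2-K1*, *H2-D1*, *H2-Q7*, *H2-T23*, *Tap1*, *Tap2* and *Tapbp*. Libraries were labelled *Zeb1*WT/*Apoe*KO (n = 2) or *Zeb1*∆M/*Apoe*KO (n = 3), and both groups lacked *Apoe*. They are called WT 1 and WT 2 and ∆M 1, ∆M 2 and ∆M 3, by genotype and replicate number. The *Zeb1*WT mice carried floxed *Zeb1* without Cre, and the *Zeb1*∆M mice carried the same floxed alleles with LysM-Cre, which is expressed from *Lyz2* and therefore deletes *Zeb1* in myeloid cells other than macrophages too. The mice were males given chow to week 8 and a Western diet for the next 10 weeks, to week 18. The labels describe whole aortas and a gate on CD45 and on the macrophage antigen encoded by *Adgre1*. The methods add CD11b to that gate, describe the sort from whole aortas in one section and name the aortic sinus in the section on RNA sequencing. The methods state that each genotype and condition was a mixture of cells from 3 mice, so the libraries may not be separate animals and p-values measure only the spread between libraries.

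MHC class I molecules display peptides from proteins made inside the cell to CD8+ T cells. A polymorphic heavy chain pairs with the invariant light chain β2-microglobulin. Proteasomes cut the peptides, the TAP transporter carries them into the endoplasmic reticulum, and tapasin holds the empty heavy chain beside TAP until a peptide binds. Nearly all nucleated cells express the pathway, and interferons and NF-κB raise it through elements close to the start sites. In atherosclerotic plaques, macrophages can present antigen to the T cells that surround them.

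The genes fall on 2 chromosomes of GRCm38. *B2m*, the light chain, lies on chromosome 2 (chr2:122147686-122153083, + strand). The other 7 members lie within 2.117 Mb of chromosome 17, in the major histocompatibility complex. The classical heavy chains are *H2-K1* (chr17:33996017-34000347, − strand) and *H2-D1* (chr17:35262730-35267499, + strand). The nonclassical heavy chains are *H2-Q7* (chr17:35439155-35443773, + strand), which encodes a Qa-2 antigen, and *H2-T23* (chr17:36029773-36032855, − strand), which encodes Qa-1. The transporter subunits are *Tap1* (chr17:34187553-34197225, + strand) and *Tap2* (chr17:34203527-34216321, + strand), and *Tapbp* (chr17:33915899-33929292, + strand) encodes tapasin.

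Of the 8 members, 7 had a RefSeq promoter (GRCm38.p6), of which the 250 bases before the start site were searched. The stretches below are shown because they place *B2m* and 3 heavy chains side by side, the 4 members with matches to both elements. Capitals mark matches to GGGNNNNNCC, a κB core, and AANNGAAA, an interferon regulatory factor core, searched on both strands. The *H2-D1* stretch precedes the RefSeq start but lies inside the longer GENCODE gene. The *H2-K1* stretch is chr17:34000429-34000458 (− strand), the *H2-D1* stretch chr17:35262923-35262952 (+ strand), the *H2-Q7* stretch chr17:35439021-35439050 (+ strand) and the *B2m* stretch chr2:122147549-122147570 (+ strand).
H2-K1: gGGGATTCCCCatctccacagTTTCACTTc
H2-D1: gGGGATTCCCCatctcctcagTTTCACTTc
H2-Q7: tGGGGATTCCCatctccccagTTTCACTTc
B2m: aAACTGAAAatGGGAAAGTCCc
In the 3 heavy chains the matches started 20 bases apart, with the κB core farther from the start site, and in *B2m* they started 10 bases apart in the opposite order. Overlapping κB matches are drawn as 1. Over 32851 promoters, AANNGAAA matched in 21.305%, GGGNNNNNCC in 45.801% and both in 6.889%. *H2-T23* had 2 interferon regulatory factor matches and 0 κB matches, *Tap1* had 0 and 5, and *Tapbp* had none of either. A match is a description of the letters, not of binding.

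Heavy chains are close copies of each other, which matters for 75-base reads. The longest run of identical coding bases between *H2-K1* and *H2-D1* was 91 bases long (GRCm38 transcripts, coding bases 738 to 828 of *H2-K1* and 747 to 837 of *H2-D1*). It is printed because a single read inside it matches both genes, although the reads were paired and a mate may lie outside it.
H2-K1 and H2-D1: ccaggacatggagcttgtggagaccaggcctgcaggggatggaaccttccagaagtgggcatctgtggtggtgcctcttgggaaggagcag
Such runs covered little of the classical genes: 1.553% of the 75-base windows of *H2-K1* and 7.101% of those of *H2-D1* also occurred in transcripts of another gene. The share was 13.09% for *H2-T23* and 27.477% for *H2-Q7*, whose longest run shared with *H2-Q6* was 265 bases. The *H2-Q7* counts are therefore uncertain. *B2m* shared no window (0%). *Tap1* shared 4.793%, all with *Psmb9*, its neighbour on the opposite strand, and *Tap2* 8.967% and *Tapbp* 17.458%, mostly with opposite-strand transcripts, which an unstranded kit cannot tell apart.

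The libraries held between 20118545 and 50649912 counts, and between 7395 and 20919 genes were counted in each. CPM (counts per 1000000) uses effective library sizes from TMM, whose factors were 0.515 to 1.42, lowest in ∆M 1. A floor of 3 counts was 0.0597 to 0.248 CPM, highest in ∆M 1, for counting error only, since amplified reads are not independent molecules. *Zeb1* had 22 counts in that library and 0 in the other 4, so it did not check the labels. *Apoe*, deleted in both groups, had 48 and 31 counts in the WT libraries, and 86, 0 and 4 counts in ∆M 1, ∆M 2 and ∆M 3, while *Lyz2* had 161607 to 869804 counts. The 10 macrophage and gate markers summed to 23844 CPM (WT 1) to 46351 CPM (∆M 1, where *C1qb* alone had 32883 CPM). Of the 10, 3 were lower in both replicate 1 libraries than in the other 3. These were *Csf1r*, with 502 counts in WT 1 and 25 in ∆M 1, and *Cd68* and *C1qa*, with 0 counts in WT 1 and 10 and 5 in ∆M 1, against at least 36172 and 48430 in the other 3 libraries. *Ptprc* and *Adgre1* were not low in WT 1 (485 and 339 CPM), and in ∆M 1 they had 39.2 and 88.1 CPM. *Adgre1* was also at 103 CPM in ∆M 2. *Itgam*, which encodes the gate antigen CD11b, had 441 and 3074 counts in the WT libraries and 0, 33 and 1988 in the ∆M libraries. *Mertk* had 22 counts in ∆M 1 and 0 in every other library. Of the 7905 genes tested for genotype, 13.7% exceeded 3 counts in all 5 libraries.

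*B2m* varied least between libraries among the members counted in all 5. It had 92073 and 81408 counts in the WT libraries and 148947, 117340 and 242062 in the ∆M libraries. These counts are 3334 and 2362 CPM, and 12291, 2744 and 4818 CPM. *B2m* ranked between 18 and 38 among all genes in every library. The highest library was 5.20 times the lowest by TMM CPM and 2.60 times by CPM of total counts, both times with ∆M 1 highest. The genotypes overlapped, since ∆M 2 was below WT 1.

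The classical heavy chains varied far more, and were low in both libraries numbered replicate 1. *H2-K1* had 2618 and 59984 counts in the WT libraries (94.8 and 1741 CPM) and 3698, 80153 and 197999 counts in the ∆M libraries (305, 1874 and 3941 CPM). *H2-D1* had 8215 and 133137 counts (297 and 3863 CPM) against 1976, 129016 and 393609 counts (163, 3017 and 7834 CPM). The highest library was 41.6 times the lowest for *H2-K1* and 48.1 times for *H2-D1*, or 30.0 and 95.9 times by CPM of total counts. For both genes the low and the high libraries came from both genotypes, which overlapped. Other measures divided the libraries the same way: mitochondrially encoded genes took 3.348% and 4.615% of counts in WT 1 and ∆M 1 against 1.238% to 1.605% in the other 3, and 1714 and 870 genes had at least 100 counts against 3173 to 4421. Their part in the heavy chain levels was not tested.

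The same 2 libraries were low for tapasin and Qa-1. *Tapbp* had 3 and 5414 counts in the WT libraries (0.109 and 157 CPM) and 16, 5683 and 9309 in the ∆M libraries (1.32, 133 and 185 CPM). *H2-T23* had 4 and 705 counts (0.145 and 20.5 CPM) against 0, 1105 and 6064 counts (0, 25.8 and 121 CPM). In both genes each genotype thus held libraries with 16 counts or fewer and libraries with 705 counts or more. A pattern noticed after the values were seen, lower in both replicate 1 libraries than in the other 3, was present in 4 of the 8 members (*H2-K1*, *H2-D1*, *H2-T23*, *Tapbp*) and in 13.3% of the 7905 tested genes. *Csf1r*, *Cd68* and *C1qa* had it too, 3 of the 10 macrophage and gate markers. The part of these differences between libraries in the class I levels was not tested. In such bulk data, fewer cells of a type and less RNA per cell cannot be told apart.

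T cell markers were counted mainly in the other 3 libraries. The 7 T cell markers summed to 7.89 and 5481 CPM in the WT libraries and to 1.73, 362 and 1343 CPM in the ∆M libraries, with 7 and 4 of the 7 above the floor in the highest 2. The gate on CD11b and the *Adgre1* antigen should leave T cells out. T cells also express class I genes, and their part in the heavy chain levels was not tested. NK cell markers summed to 832 CPM in WT 1, 876 CPM in ∆M 3 and at most 2.06 CPM elsewhere. The sum was almost wholly *Gzma* in WT 1, and *Gzma* and *Prf1* in ∆M 3. *Ncr1* and *Klrb1c* had 0 counts in both. Neutrophil markers summed to 2615 and 671 CPM in the WT libraries and to 2734, 841 and 39.9 CPM in the ∆M libraries. The sum in ∆M 1 was *S100a8* alone, and *Ly6g* had at most 1 count in any library. The part of neutrophils in the heavy chain levels was not tested. Hemoglobin genes, the red cell markers, summed to 16147 CPM in ∆M 1 and to at most 2.72 CPM elsewhere. B cell, smooth muscle and adipocyte markers summed to at most 5.36 CPM in any library, and the defining genes *Cd79a*, *Cd79b* and *Acta2* were at 0 in all 5. Fibroblast markers summed to 444 CPM in ∆M 2, from *Dcn*, and to at most 2.25 CPM elsewhere, endothelial markers to 0.140 to 72.3 CPM, and dendritic cell markers to at most 5.78 CPM.

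*H2-Q7* and the transporter had the lowest mean levels, although *H2-Q7* was above *H2-T23* and *Tapbp* in WT 1 and ∆M 1. *H2-Q7* had 22 and 2 counts in the WT libraries (0.796 and 0.0580 CPM) and 26, 6 and 1112 in the ∆M libraries (2.15, 0.140 and 22.1 CPM), so that 1 library carried nearly all of it. *Tap1* had 0 and 23 counts (0 and 0.667 CPM) against 6, 0 and 0 counts (0.495, 0 and 0 CPM). *Tap2* had 9 counts in ∆M 1 (0.743 CPM) and 0 in the other 4 libraries. *Tap1* and *Tap2* thus had at most 23 counts in any library, also in those with 59984 counts of *H2-K1* or more. Its low counts contrast with *Psmb9*, an immunoproteasome subunit whose RefSeq start lies 226 bases from that of *Tap1* on the opposite strand, and which had 5865, 8552 and 16687 counts in WT 2 and ∆M 2 and ∆M 3.

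**Figure D1:**
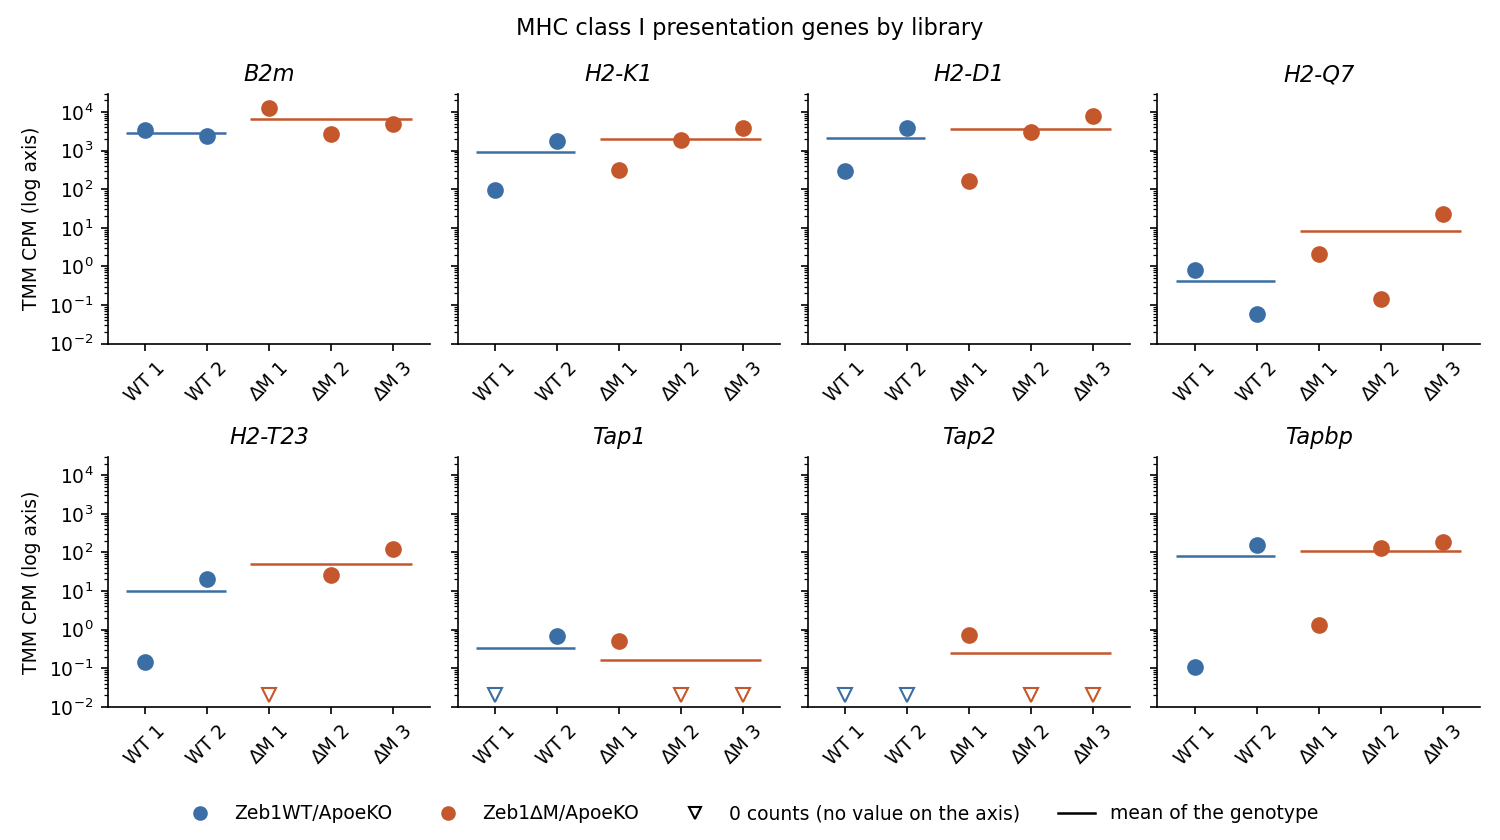
TMM CPM of the 8 class I presentation genes in each library, on a log axis, with a line at the mean of each genotype (blue WT, n = 2, and orange ∆M, n = 3) and open triangles for libraries with 0 counts. *B2m* stays between 2362 and 12291 CPM, *H2-K1*, *H2-D1*, *H2-T23* and *Tapbp* are lowest in both replicate 1 libraries, and *Tap1* and *Tap2* never exceed 0.743 CPM.

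Per kilobase of exon, the order of the mean levels was *B2m* (5941 CPM per kilobase), *H2-D1* (1177), *H2-K1* (542), *Tapbp* (26.3), *H2-T23* (11.6), *H2-Q7* (1.19), *Tap1* (0.0425) and *Tap2* (0.0393). The order was the same per kilobase of the main coding transcript. It did not hold library by library: *H2-K1* was above *H2-D1* in ∆M 1 (104 against 63.2 CPM per kilobase), and in the other 4 libraries *H2-D1* was higher. In WT 1 and ∆M 1, *H2-Q7* was above *Tapbp* and *H2-T23* on this scale too. Neighbours in the order, such as *H2-K1* and *H2-D1* or *Tapbp* and *H2-T23*, differed by less than their range over libraries.

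Ratios to *B2m* within a library, which need no scaling between libraries, showed the same division. For each 1000 counts of *B2m*, *H2-D1* had 1635, 1100 and 1626 counts in WT 2 and ∆M 2 and ∆M 3. The corresponding values for *H2-K1* were 737, 683 and 818, and those for *Tapbp* 66.5, 48.4 and 38.5. In these libraries of both genotypes the ratios differed by less than 2-fold for these 3 genes, but not for *H2-T23*, with 8.66, 9.42 and 25.1. In the replicate 1 libraries, *H2-D1* had 89.2 (WT) and 13.3 (∆M) counts per 1000 of *B2m*, and *H2-K1* had 28.4 and 24.8. *Tapbp* fell there to 0.0326, from 3 counts, and 0.107. The light chain transcript was thus abundant in every library, also where the heavy chains and tapasin were low.

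**Figure D2:**
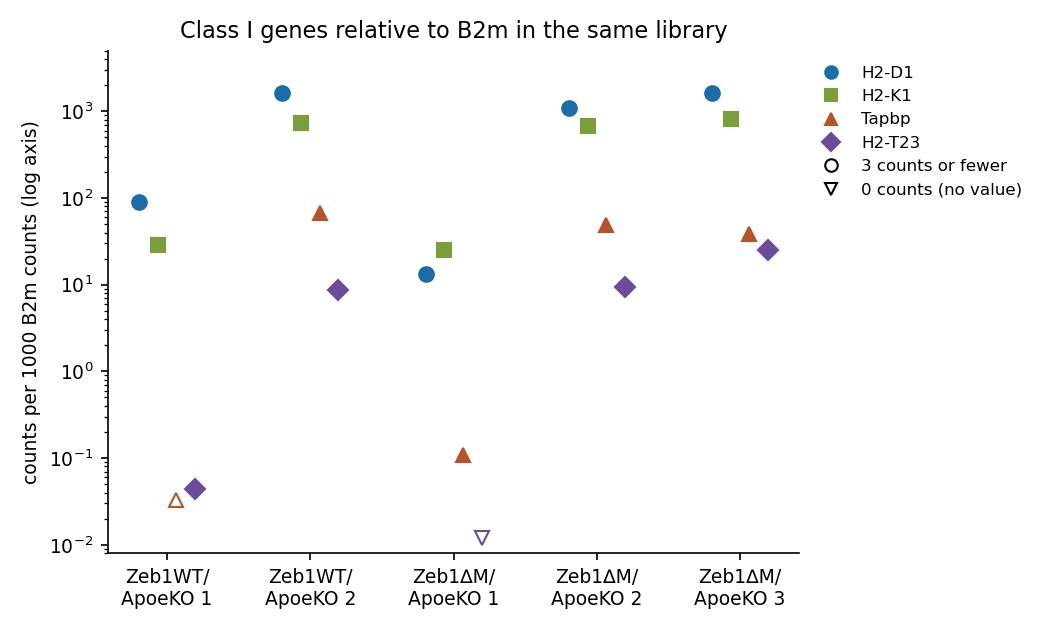
Counts of *H2-D1*, *H2-K1*, *Tapbp* and *H2-T23* per 1000 counts of *B2m* in the same library, on a log axis, with open symbols for 3 counts or fewer. Both replicate 1 libraries lie below WT 2, ∆M 2 and ∆M 3 for all 4 genes, and *H2-T23* is higher in ∆M 3 (25.1) than in WT 2 (8.66) and ∆M 2 (9.42).

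The heavy chain that took most of the counts also differed between libraries. Summed over 29 *H2* class I heavy chain genes, the libraries held 37988 and 202698 counts (WT) and 5832, 210337 and 615687 counts (∆M). *H2-K1* and *H2-D1* together made up 95.3% to 99.4% of this sum in 4 libraries. In WT 1 they made up 28.5%, and *H2-Q6*, a nonclassical heavy chain of the Qa group, made up 71.3%. *H2-Q6* had 27099 and 3120 counts in the WT libraries and 13, 2 and 16873 in the ∆M libraries. Of the 75-base windows of *H2-Q6*, 21.084% also occurred in transcripts of other genes, 9.796% in *H2-Q7* and 4.426% in *H2-Q4*, so its counts are uncertain too. Adding the near copy *H2-Q7* left this uneven pattern in place, with sums of 27121, 3122, 39, 8 and 17985 counts. *H2-T22*, another nonclassical gene, named after its values were seen, had 5707 counts in WT 2 and at most 1 elsewhere.

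**Figure D3:**
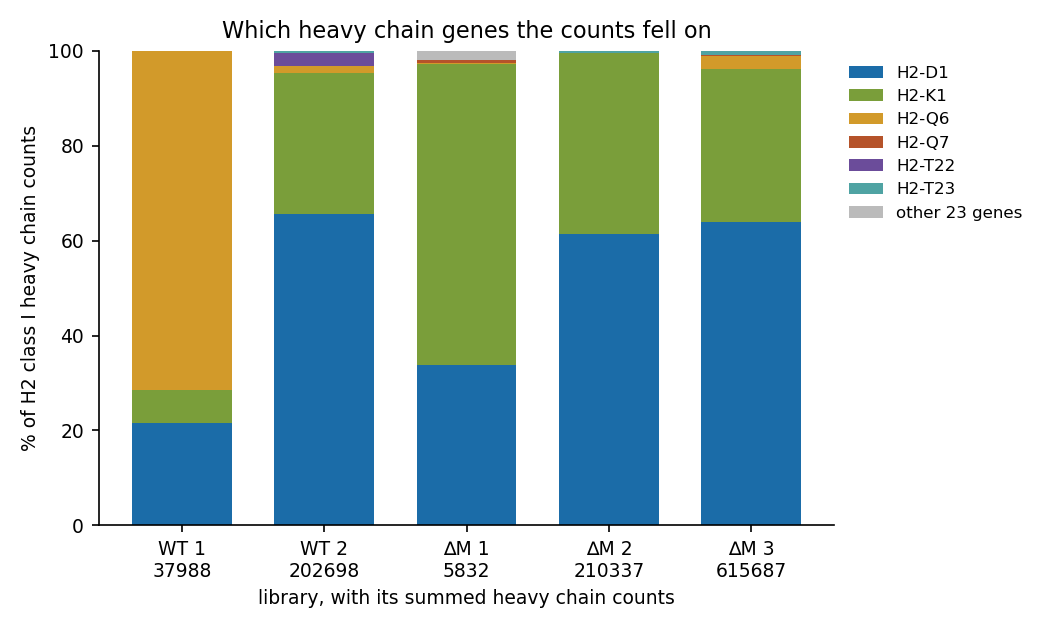
Share of the summed counts of 29 *H2* class I heavy chain genes that fell on each gene, in percent, per library, with the summed counts under each bar. *H2-D1* and *H2-K1* fill 95.3% or more of 4 bars, and *H2-Q6* fills 71.3% of the bar of WT 1.

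The comparison of genotypes asked whether loss of *Zeb1* in myeloid cells goes with other levels of the class I genes. Of the 8 members, 6 passed the filter on low counts. None of them passed the test (0 of 6 with an adjusted p under 0.05 in edgeR's quasi-likelihood test, 0 at an unadjusted p under 0.05), beside 0 of the 7905 tested genes (0%), of which 86 had an unadjusted p under 0.05. DESeq2 and limma-voom also called 0 members, beside 12.1% of the 6519 genes with an adjusted p in DESeq2 and 2.96% of the 7905 genes in limma-voom. No member (0 of 8) had all ∆M libraries above, or below, both WT libraries, beside 11.2% of the tested genes. These tests do not show that the genotypes were alike, because in edgeR the standard error was larger than the log2 fold change for each of the 6 tested members.

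*B2m* had a mean of 2848 ± 687 CPM (SD, n = 2) in the WT libraries and 6617 ± 5021 CPM (SD, n = 3) in the ∆M libraries, and its log2 fold change was 1.22 ± 1.95 (SE). The means of *H2-K1* were 918 ± 1164 and 2040 ± 1824 CPM, with a log2 fold change of 1.15 ± 2.60, and those of *H2-D1* 2080 ± 2521 and 3671 ± 3877 CPM, with 0.82 ± 2.19. *H2-T23* gave 2.24 ± 5.32, *H2-Q7* 4.24 ± 4.89 and *Tapbp* 0.44 ± 4.72, and every adjusted p was 1 in edgeR. All 6 fold changes were above 0, but 60.9% of the tested genes were too, with a median log2 fold change of 0.78. Relative to this median, *B2m* was at 0.43, *H2-K1* at 0.37, *H2-D1* at 0.04, *H2-T23* at 1.46, *H2-Q7* at 3.46 and *Tapbp* at −0.34. With upper-quartile scaling *H2-D1* moved to −1.07, *H2-Q7* to −0.047, *B2m* to 0.0024 and *H2-K1* to 0.36. *H2-T23* was at −1.60 with the replicate number as a block, and *Tapbp* at −0.44 without WT 1 and −0.23 without ∆M 3. No direction is therefore given for any of the 6. *Tap1* and *Tap2* were below the filter. Their mean log2 CPM differed by −0.73 and 1.25 (two-sided exact permutation test, p = 0.7 and 1, the smallest possible p being 0.1).

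Without both replicate 1 libraries, a comparison chosen after the values were seen, the standard errors of *B2m*, *H2-K1* and *H2-D1* shrank, whereas those of *H2-Q7* and *H2-T23* grew to 11.9 and 7.88. The log2 fold change was then 0.83 (standard error 0.43) for *B2m*, 0.64 (0.30) for *H2-D1* and 0.89 (0.55) for *H2-K1*, all with an adjusted p of 0.742 in edgeR. In this fit 1 member, *H2-D1*, had an unadjusted p under 0.05, beside 165 of the 8028 genes. Of these genes 2 were called and neither is a member, and 5 members (*B2m*, *H2-K1*, *H2-Q7*, *H2-T23*, *Tap1*) did not overlap between genotypes, beside 59.2% of the tested genes. This fit has a lone WT library, which is assumed to vary like the others.

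**Figure D4:**
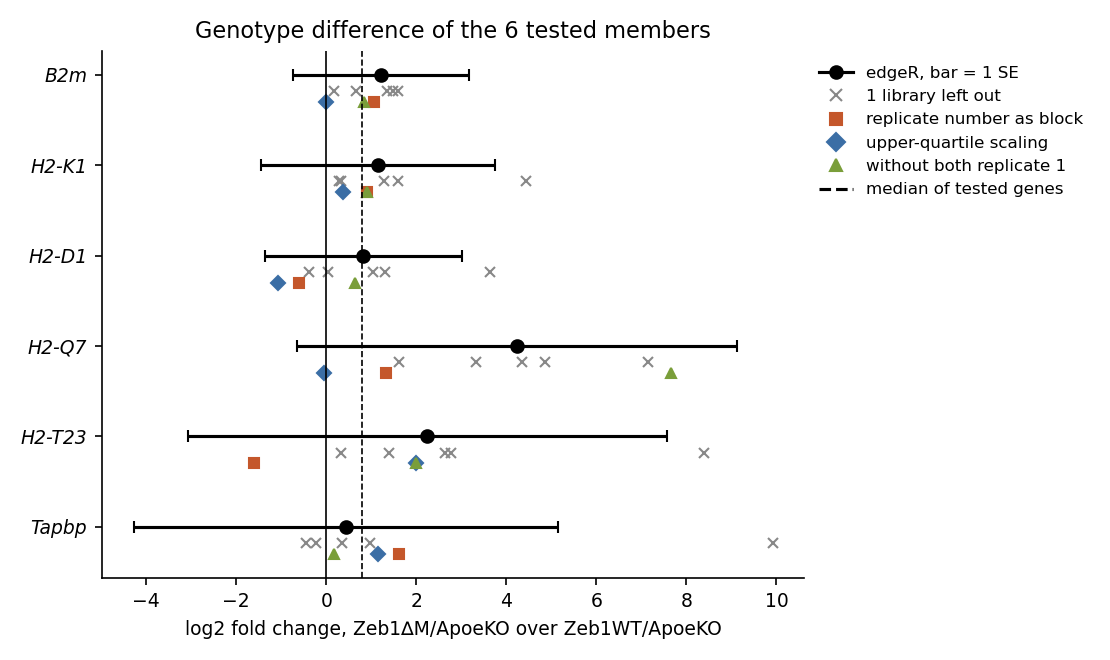
Log2 fold change (∆M over WT) of the 6 tested members from edgeR with 1 standard error, with the values after leaving out 1 library, with the replicate number as a block, with upper-quartile scaling and without both replicate 1 libraries; the dashed line is the median of all tested genes, 0.78. The bars of *B2m*, *H2-K1*, *H2-D1*, *H2-Q7*, *H2-T23* and *Tapbp* all cross 0.

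Other genes of the pathway were read from 8 lists with 62 genes in the table, of which 40 were tested. In edgeR 0 genes of these lists had an adjusted p, or an unadjusted p, under 0.05. Without overlap between genotypes were 5 of the 40 (12.5%, beside 11.2% of all tested genes), and 1 of these, *Psmb6*, stayed so with CPM of total counts, RLE and upper-quartile scaling. Among genes that assist loading and trimming, 7 of 7 were tested, 1 did not overlap between genotypes and the median log2 fold change was −0.89. Of the 7, 4 were lower in both replicate 1 libraries than in the other 3. *Hspa5*, an endoplasmic reticulum chaperone with the highest mean in the list, had 4719 and 99592 counts in the WT libraries and 170, 20212 and 86492 in the ∆M libraries. *Uggt1*, a folding sensor of glycoproteins, had 7431 and 124 counts against 23, 0 and 0, lower in every ∆M library, but overlapping with RLE and upper-quartile scaling.

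The immunoproteasome and its activator supply peptides for class I. All 5 genes were tested, with a median log2 fold change of −0.88. *Psmb8*, a catalytic subunit, had 691 and 810.1 CPM in the WT libraries and 1.65, 579.8 and 586 CPM in the ∆M libraries, which were all lower, but overlapped with upper-quartile scaling. *Psme2*, a subunit of the PA28 activator, had 597 and 141 CPM against 995, 946 and 599.5 CPM, all higher, but overlapping with each of the other 3 scalings. Its partner *Psme1* had 255 and 419 CPM against 0.0825, 91.7 and 456 CPM. *Psmb9* had 0 and 5865 counts against 24, 8552 and 16687 counts. Standard errors of these 4 genes were between 3.18 and 4.48 on the log2 scale.

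The constitutive catalytic subunits, which the immunoproteasome subunits replace, had a median log2 fold change of 5.40 over 3 tested genes, which did not share a direction. *Psmb7*, named after its values were seen, had 10 and 4403 counts in the WT libraries and 0, 0 and 3690 in the ∆M libraries. Its log2 fold change was −1.39 ± 4.84 (SE). *Psmb6* had 0 and 173 CPM in the WT libraries and 9381, 739 and 831 CPM in the ∆M libraries, without overlap. Its log2 fold change was 5.40 ± 2.98 (SE), not called in edgeR (adjusted p = 1). *Psmb5*, named after its values were seen, had 0 counts in both WT libraries and in ∆M 1, and 8681 and 4599 counts in ∆M 2 and ∆M 3. The genotypes thus overlapped for *Psmb5*, and edgeR, with a log2 fold change of 14.7 ± 8.73 (SE), did not call it. It was the only gene of the 8 lists that DESeq2 or limma-voom called, with an adjusted p of 0.0205 in DESeq2 and 0.00152 in limma-voom. Over all genes DESeq2 called 12.1% of 6519 and limma-voom 2.96% of 7905.

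Transcription factors of class I genes were sparse, with 8 of 12 tested and a median log2 fold change of 0.48. *Nlrc5*, the class I transactivator, had 43 and 291 counts in the WT libraries and 13, 3 and 4 in the ∆M libraries, without overlap in CPM, and its log2 fold change was −3.62 ± 3.96 (SE). *Irf2* had 212 and 2121 counts against 15, 4208 and 5463, lowest in the replicate 1 libraries. *Irf1* had 16 and 413 counts against 12, 2610 and 0. *Creb1* had 3 and 3474 counts against 45, 7 and 525, and *Nfya* 21 and 98 against 45, 486 and 2. The profile of *Nlrc5* overlapped between genotypes with RLE and upper-quartile scaling, and those of *Irf2*, *Irf1*, *Creb1* and *Nfya* overlapped with every scaling.

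**Figure D5:**
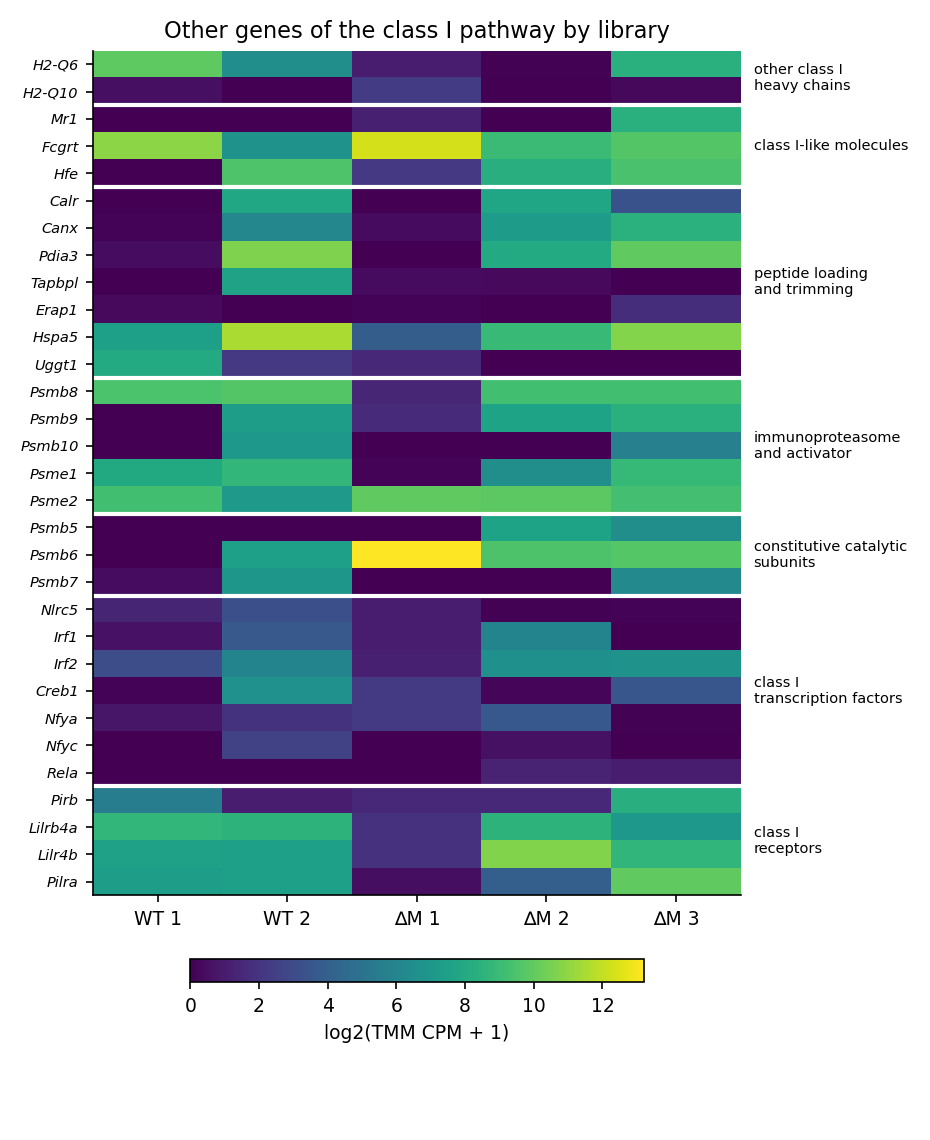
Log2(TMM CPM + 1) of tested genes from 7 pathway lists in each library, from dark (0) to bright (over 12), with white lines between lists. Most rows have bright and dark libraries in the same genotype, for example *Hspa5* at 2890 CPM in WT 2 and 171 CPM in WT 1.

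Of the class I-like molecules, 3 of 6 were tested, with a median log2 fold change of 1.08. *Fcgrt*, the heavy chain of the neonatal Fc receptor and a partner of β2-microglobulin, had the highest mean, with 1934 and 104 CPM in the WT libraries and 5146, 517 and 804 CPM in the ∆M libraries. Unlike *H2-K1*, it was high in both replicate 1 libraries. Of the other heavy chains, 2 of 13 were tested, *H2-Q6* with the higher mean and a log2 fold change of −2.25 (standard error 3.72). A list drawn up as class I receptors, not all of which are established to bind class I, had 4 of 5 genes tested and a median of 1.47. Its gene with the highest mean, *Lilr4b*, encodes an immunoglobulin-like receptor for which such binding is not established. It had 186 and 171 CPM against 2.72, 1655 and 416 CPM. The class II genes, given for comparison, had 8 of 11 tested and a median of −0.33, and *Ctss*, the protease that processes the invariant chain, had 1038 and 4916 CPM against 18842, 3644 and 6289 CPM. In each of these 4 lists 0 tested genes were without overlap.

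The genes with profiles nearest to *B2m* over the 5 libraries were *Prdx5*, a peroxiredoxin, *Gm13340* and *Serf2*. Their root mean square distance in centred log2 CPM was 0.149, 0.189 and 0.270. *Prdx5* had 14265 and 12708 counts in the WT libraries and 26828, 17409 and 47141 in the ∆M libraries, while *Gm13340* had at most 35 counts. Among 7904 genes, the nearest member was *H2-Q7* at rank 2519, followed by *H2-K1* (2586), *H2-D1* (3024), *Tapbp* (5782) and *H2-T23* (6173). Counted from *H2-K1*, *H2-D1* was at rank 35, *Tapbp* at rank 666 and *B2m* at rank 725. The classical heavy chains thus resembled each other more than either resembled their light chain.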

How the data were processed

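The authors mapped paired 75-base reads of amplified, unstranded SMART-Seq v4 cDNA to GRCm38 with STAR 2.5.3a and deposited RSEM 1.3.0 expected counts per gene as whole numbers (GENCODE mouse version 25 in the methods), unnormalized. RSEM divides reads shared by similar genes by estimation. Counts were tested with edgeR 4.0.16 (R 4.3.3; filterByExpr with a minimum count of 10, TMM, quasi-likelihood test without covariates, Benjamini-Hochberg over 7905 genes, called under 0.05). Standard errors from edgeR were the size of the log2 fold change divided by the square root of the test's F statistic. Log2 CPM used a prior count of 2. Alternatives were DESeq2 1.42.0, limma 3.58.1 (voom), other scalings and filters, the replicate number as a block, and libraries left out. Named genes were the 8 members, the highest and the non-overlapping genes of 8 lists, the immunoproteasome genes and factors above 3 counts in 3 libraries, and the 3 genes nearest to *B2m*. The members and lists were chosen with earlier results of these data known. Coordinates and lengths are from GENCODE M21, with 55141 of 55487 identifiers matched, and promoters from RefSeq. Proteins were not analysed here. 1 gene of the lists is counted in them but not reported here.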

Additional observations from a re-analysis of the deposited data

How the results depend on the processing

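No setting called a member. The count of called genes was 790 with DESeq2, 234 with limma-voom, 2 without both replicate 1 libraries (added after seeing the data) and 0 with every other setting, the common dispersion being 6.44. In the list of constitutive catalytic subunits, DESeq2 and limma-voom each called 1 gene, beside 12.1% and 2.96% of all genes. The other lists gave 0. Of 105 alternative log2 fold changes of members, 95 kept their direction and 10 reversed. Upper-quartile scaling gave −1.07 for *H2-D1*, −0.047 for *H2-Q7* and 1.01 for *Tap1*, and DESeq2 gave 0.58 for *Tap1*. The cause was not tested. Leaving out 1 library gave 0.16 to 1.58 for *B2m*, 0.28 to 4.43 for *H2-K1*, −0.38 to 3.65 for *H2-D1*, 1.61 to 7.14 for *H2-Q7*, 0.32 to 8.39 for *H2-T23*, −0.44 to 9.91 for *Tapbp*, −2.63 to 0.90 for *Tap1* and 1.07 to 1.88 for *Tap2*. Among the 6 tested members, negative values came without WT 1 (*Tapbp*) and without ∆M 3 (*H2-D1* and, at −0.23, *Tapbp*). *Tap1*, negative with all libraries, turned positive without WT 2 and stayed negative when any other library was left out. A lone library was assumed to vary like the others. The members without overlap numbered 0 to 3 when 1 library was left out, beside 21.6% to 30.7% of tested genes, and 5 without both replicate 1 libraries, beside 59.2% of tested genes.

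The replicate numbers 1 and 2 occur in both genotypes but nothing says that they mark a shared batch, so they were not treated as pairs. Deviations from the genotype means correlated at 0.237 between the replicate 1 libraries and at 0.071 between the replicate 2 libraries. With the replicate number as a block, 0 genes were called, 7 had an unadjusted p under 0.05, and *H2-D1* (−0.61) and *H2-T23* (−1.60) reversed. *Tap1* and *Tap2* had no value with the block or limma-voom, and *Tap2* none where all counts were at or under 3. The median log2 fold change of tested genes was 1.24 with RLE and 0.29 with upper-quartile scaling.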
